A study of Homo sapiens with 4 samples.

Results

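The HOX genes are the clustered homeobox genes of the HOXA, HOXB, HOXC and HOXD loci, here taken as all genes whose annotated symbol is HOX, a cluster letter and a number. Of the 39 such genes in the reference gene table, 28 had an Affymetrix probe set assigned to that 1 symbol, out of 19775 genes measured in all. They were HOXA2, all 10 HOXB genes, all 9 HOXC genes and 8 HOXD genes. HOXD3 and the other HOXA genes were not analysed here, so the HOXA cluster was represented by 1 of its 11 genes. Each gene was represented by its brightest probe set, the one with the highest mean signal over the arrays.

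The cells were CAPAN2, an established human pancreatic ductal adenocarcinoma line. The comparison asked how the transcriptome changes when LLGL1, a lethal giant larvae protein of cell polarity, is targeted by RNA interference. There were 4 arrays, 2 from cells transduced with control lentivirus and 2 from cells transduced with lentivirus carrying shRNAs against human LLGL1, and all cells received 8 µg/ml hexadimethrine bromide overnight and grew in medium with 10% serum. The sample titles write siLLGL1 for the latter group, while the other labels and the design text name lentiviral shRNAs, which is the wording followed here. The sources used here do not name the shRNA sequences, the time after transduction or any selection of transduced cells, and all arrays come from 1 cell line. The labels call the arrays of a group biological replicates without naming separate cultures, so each p-value rests on a spread between arrays that may be technical.

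HOX genes encode transcription factors whose homeodomain binds DNA. Genes at one end of a cluster (low paralogue numbers) are used in anterior parts of the embryo and those at the other end in posterior parts, and an adult cell usually keeps the HOX pattern of the body region it came from. Polycomb complexes, which place or read repressive marks on histones, hold unused HOX genes silent, and trithorax proteins keep used ones active. The clusters also carry microRNA genes and antisense RNAs. Mature microRNA sequences are shown because these small RNAs were beyond the reach of the arrays and the sequences show which of those printed are kin across clusters. They are from RefSeq on GRCh38.p14, with the seed (bases 2 to 8, the stretch that pairs with targets) in capitals:
hsa-miR-10a-5p: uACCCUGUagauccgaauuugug
hsa-miR-196a-5p: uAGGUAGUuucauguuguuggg
hsa-miR-196b-5p: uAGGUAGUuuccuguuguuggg
hsa-miR-615-3p: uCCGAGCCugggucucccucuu
The miR-10a sequence lies in the HOXB cluster at chr17:48579904-48579926 on the minus strand. The miR-196a sequence is encoded both in HOXB, at chr17:48632532-48632553 on the minus strand, and in HOXC, at chr12:53991762-53991783 on the plus strand. miR-196b lies in HOXA at chr7:27169528-27169549 on the minus strand and shares the seed AGGUAGU with miR-196a. miR-615 lies in HOXC at chr12:54034010-54034031 on the plus strand and has a seed of its own.

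The whole-array measurements that touch these results were as follows. Array medians were 2.95 to 2.98 on the log2 scale, and Pearson's r over probe sets was 0.997 between replicates. LLGL1 itself was 6.83 and 6.86 on the control arrays and 6.73 and 6.71 on the arrays labelled LLGL1 shRNA, a log2 difference of -0.12 (95% interval -0.27 to 0.02, limma adjusted p = 0.22). The target was thus not lower past the threshold, and its other probe sets differed by 0.09 and 0.06 with overlapping arrays, so these arrays do not show the knockdown directly. The poly-A spike-in controls were lower on the arrays labelled LLGL1 shRNA by a mean log2 difference of -1.14 over 24 probe sets, and the 18S rRNA controls by -1.97 over 3. Both kinds of control moved with the groups, and their part in the differences below was not tested. By the mean over the 4 arrays, 8 of 9 measured ductal markers lay above the upper quartile of signal (5.04). All 4 immune and all 4 endothelial markers and 5 of 6 fibroblast markers lay below it. KRT7 was among the 8 ductal markers only through the arrays labelled LLGL1 shRNA. It read 4.277 and 4.302 on the control arrays, below that quartile. Summed over the ductal list, the log2 signals were 82.7 and 82.8 on the control arrays and 82.6 and 82.7 on the arrays labelled LLGL1 shRNA. These sums hide opposite changes, as 6 of the 9 differences were negative and 3 positive, and the rise of KRT7 offsets much of the falls. Within that list KRT19 (-0.61) and CDH1 (-0.47) were lower and KRT7 (1.62) was higher past the threshold, and their part in the HOX differences was not tested. The fibroblast sums ran from 16.6 to 16.8 in controls and from 16.4 to 17.3 in the other group, the immune sums from 9.46 to 9.67 and from 9.58 to 9.90, and the endothelial sums from 9.54 to 9.74 and from 9.65 to 10.06. In RNA from whole cultures, fewer cells of a kind and less RNA per cell cannot be told apart.

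The signals of the HOX genes fell into a bright run in the HOXB cluster and a dim remainder. Over all 54675 probe sets, the median of the mean log2 signal was 2.97 and the upper quartile 5.04. Only 8 HOX genes exceeded the upper quartile, namely the 7 consecutive genes HOXB3 to HOXB9, and HOXC6. Another 12 lay between the median and the upper quartile, and 8, all from HOXC and HOXD, lay below the median. HOXB1 and HOXB2, at the anterior end, and HOXB13, at the posterior end, had signals under 5 on every array. Signals of different probe sets depend on their probes, so these positions describe detection and do not order the RNA amounts of the genes.

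**Figure D1:**
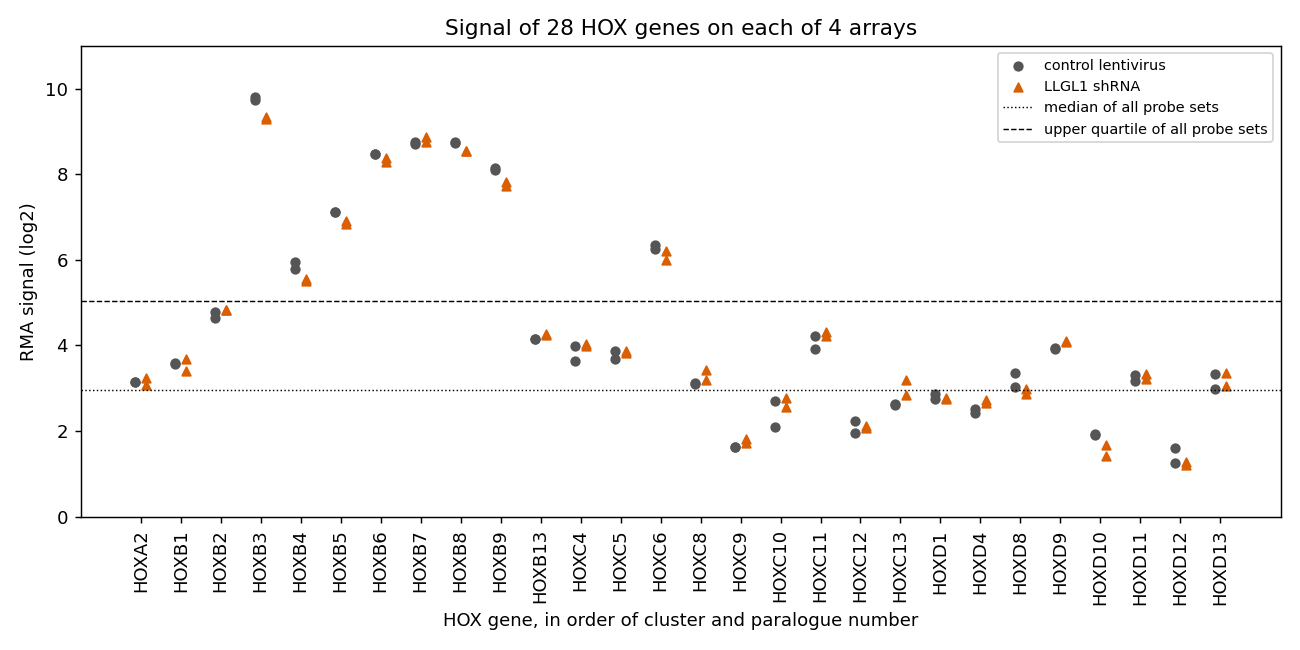
RMA signal (log2, vertical axis) of the 28 HOX genes (horizontal axis, by cluster and paralogue number), with grey circles for the 2 control arrays, orange triangles for the 2 arrays labelled LLGL1 shRNA, and lines at the median (2.97) and upper quartile (5.04) of all probe sets. HOXB3 to HOXB9 and HOXC6 lie above the upper line, and the 20 other genes lie under it.

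One HOX gene, HOXB3, changed past the threshold (limma adjusted p below 0.05 over all 19775 genes), and it was lower on the arrays labelled LLGL1 shRNA. Over all genes 6.28% passed, 3.07% lower and 3.21% higher, and among the 8286 genes above the upper quartile of signal 5.89% were called lower and 5.27% higher. The share of HOX genes called, 1 of 28, is therefore near that background, and 0 HOX genes were called higher. At an unadjusted p below 0.05, 6 HOX genes were lower and 3 higher, beside 13.7% and 14.5% of all genes. Without overlap between groups, 9 HOX genes were lower and 8 higher, beside 24.7% and 27.7% of all genes. The median log2 difference of the 28 genes was 0.03, beside 0.01 over all genes, with 16 genes positive and 12 negative.

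HOXB3, an anterior homeodomain factor that patterns the hindbrain and pharyngeal arches, had log2 signals of 9.73 and 9.80 on the control arrays and 9.30 and 9.33 on the arrays labelled LLGL1 shRNA. Both control values lay above both others, with no overlap. The log2 difference was -0.45 (SE 0.0555, 95% interval -0.60 to -0.29, adjusted p = 0.0389), a 1.36-fold lower signal with n = 2 arrays per group. A second HOXB3 probe set did not show it: its values were 4.48 and 4.41 in controls and 4.50 and 4.38 in the other group, a difference of -0.01 with overlapping arrays. Its signal lay under the upper quartile. In a test over all 41091 single-symbol probe sets, of which 0.83% passed, the bright HOXB3 probe set had an adjusted p of 0.0589. Leaving out any 1 of the 4 arrays left HOXB3 lower by -0.48 to -0.42 with adjusted p values of 0.187 to 0.262, and 0 of all genes then passed (3496 to 4546 at an unadjusted p below 0.05). With the mean of both HOXB3 probe sets the difference was -0.23 (adjusted p = 0.0788), and HOXB9 then passed in its place. In RefSeq the HOXB3 gene span holds HOXB4 and the microRNA gene MIR10A, and where the HOXB3 probes lie in it was not analysed here.

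The neighbouring bright HOXB genes were lower too in all but 1 case, though none of them passed the threshold. HOXB9, a posterior paralogue, had values of 8.15 and 8.11 in controls and 7.81 and 7.72 on the arrays labelled LLGL1 shRNA. Its groups did not overlap, and the log2 difference was -0.36 (SE 0.0603, 95% interval -0.53 to -0.19, adjusted p = 0.0549). HOXB9 was the one gene of this run in which a second probe set was also lower without overlap where the brightest one was, at 5.78 and 5.76 in controls and 5.36 and 5.25 in the other group. This second difference was -0.47 (adjusted p = 0.0634 when tested on its own), again without overlap, from a probe set of the kind whose probes may match other genes.

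HOXB4, a factor known from blood stem cell growth, had values of 5.78 and 5.96 in controls and 5.51 and 5.56 on the arrays labelled LLGL1 shRNA. The groups did not overlap, but the control arrays were farther apart than for its neighbours, and the difference was -0.33 (SE 0.0845, adjusted p = 0.101). HOXB5, which acts in vascular and enteric nervous development, read 7.11 and 7.12 in controls and 6.92 and 6.85 in the other group. That difference was -0.23 (SE 0.0556, adjusted p = 0.0904), with both control arrays above the others, while its second probe set differed by -0.05 with overlap. HOXB8, a central paralogue with a role in myeloid progenitors, read 8.72 and 8.74 in controls and 8.55 and 8.54 in the other group. The arrays of each group lay close together, and the difference was -0.19 (adjusted p = 0.107). A second, dimmer HOXB8 probe set, the one kept when probe sets named _s_at are avoided, differed by -0.05 with overlapping arrays. HOXB6 read 8.48 and 8.47 against 8.37 and 8.29, a difference of -0.14 (adjusted p = 0.215) that was the smallest of the non-overlapping ones in the run. Its second probe set, below the median of signal, differed by -0.10 with overlapping arrays.

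HOXB7, a central paralogue studied for its part in tumour cell growth, was the exception. Its brightest probe set read 8.76 and 8.71 in controls and 8.88 and 8.75 on the arrays labelled LLGL1 shRNA. The groups overlapped, and the difference was 0.08 (95% interval -0.11 to 0.27, adjusted p = 0.515). The other HOXB7 probe sets differed by 0.02 and -0.13, so they went both ways, and with the mean of all HOXB7 probe sets the difference was -0.0074.

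As a run, 6 of the 7 genes HOXB3 to HOXB9 were lower without overlap, and their median log2 difference was -0.23. Of the 8 HOX genes above the upper quartile of signal, 7 were lower without overlap, and 0 were higher, beside 38.3% and 36.6% of all genes at such signals, and 5 were lower at an unadjusted p below 0.05, beside 23.3%. The median log2 difference of these 8 was -0.21, beside -0.0034 over all genes above the upper quartile. The 7 dimmer probe sets of 6 of these bright genes were less uniform: 6 had a negative difference, 2 were lower without overlap and 0 passed the threshold. Neighbouring genes of a cluster can share RNA and are not independent measurements.

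**Figure D2:**
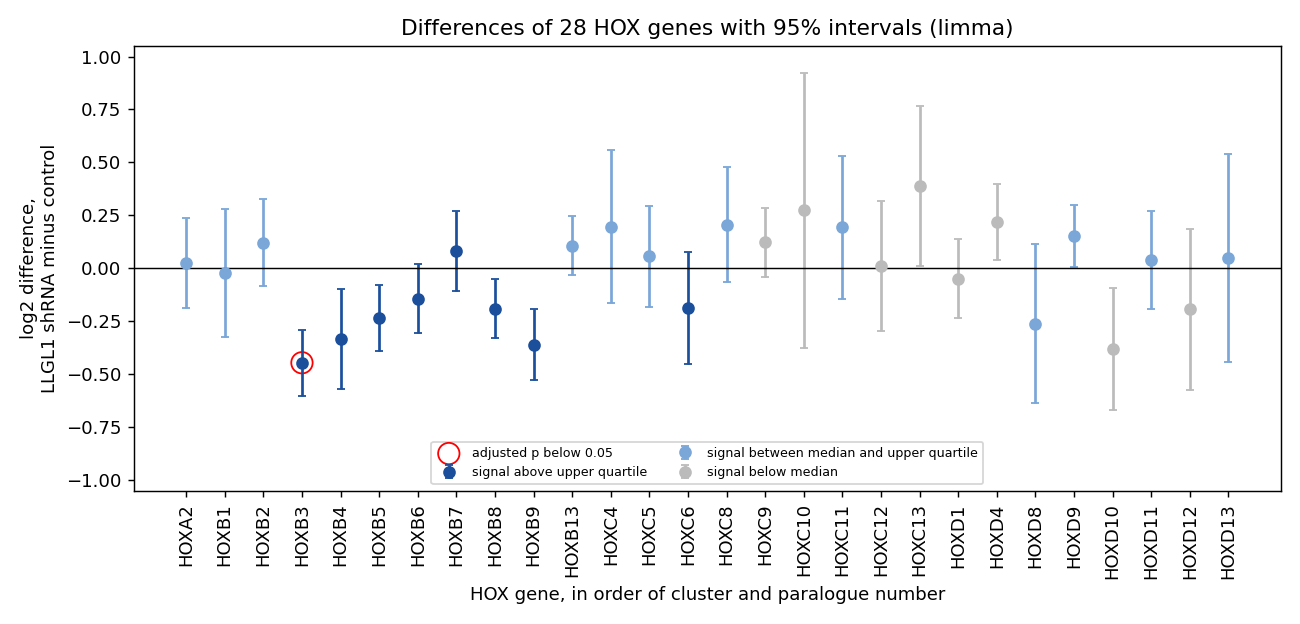
The log2 difference, LLGL1 shRNA minus control (vertical axis), of the 28 HOX genes (horizontal axis, by cluster and paralogue number), with limma's 95% intervals, coloured by signal level and with a red ring at an adjusted p below 0.05. HOXB3 carries the only ring at -0.45, and HOXB7 at 0.08 is the one gene above 0 between HOXB3 and HOXB9.

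**Figure D3:**
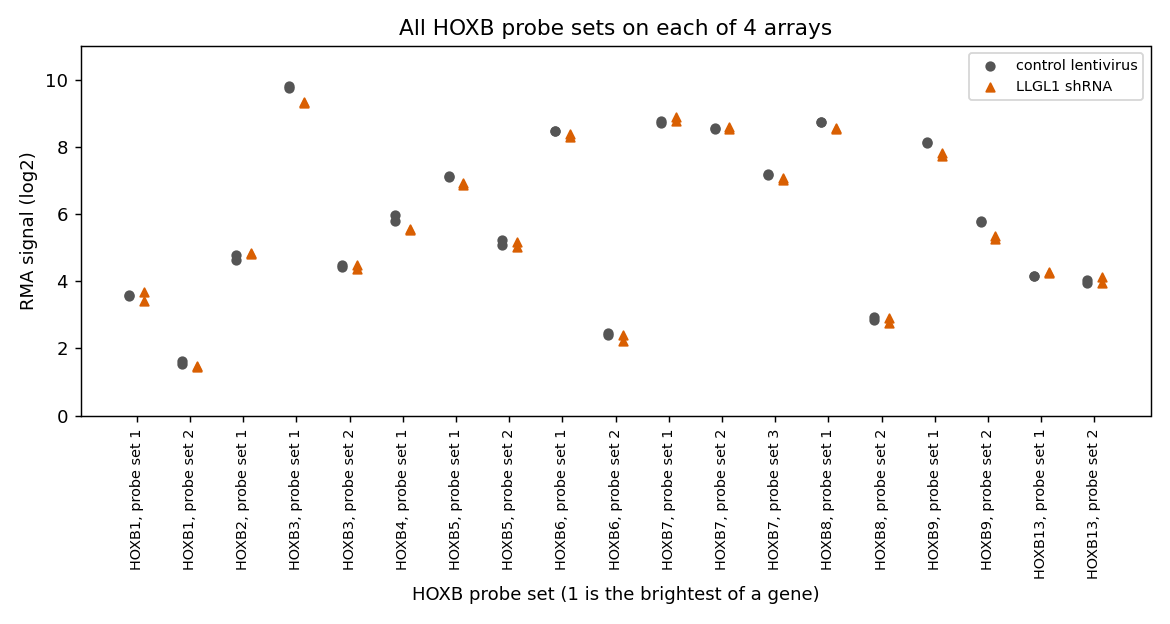
RMA signal (log2, vertical axis) of every HOXB probe set (horizontal axis, probe set 1 being the brightest of its gene), with grey circles for the 2 control arrays and orange triangles for the 2 arrays labelled LLGL1 shRNA. Both HOXB9 probe sets are lower in the shRNA group (-0.36 and -0.47), while the second HOXB3 probe set differs by -0.01.

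The HOXB genes at the ends of the cluster had small differences, mostly of the opposite sign. HOXB2, an anterior factor, had values of 4.79 and 4.63 in controls and 4.84 and 4.82 in the other group, a difference of 0.12 (adjusted p = 0.386). HOXB13, the posterior gene known from prostate epithelium, read 4.15 and 4.16 in controls and 4.26 and 4.25 in the other group, a difference of 0.11 (adjusted p = 0.274). Both were slightly higher without overlap and neither passed the test. HOXB1 differed by -0.02 with overlapping arrays. A second HOXB1 probe set, below the median of signal, was lower without overlap by -0.13. The second HOXB13 probe set differed by 0.05 with overlapping arrays.

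Transcripts other than protein-coding ones in the same stretch gave mixed readings. The probe set annotated to MIR10A, the only cluster microRNA with a probe set of its own, read 6.30 and 6.30 in controls and 6.13 and 6.05 on the arrays labelled LLGL1 shRNA. It was lower without overlap by -0.21 (SE 0.0567, adjusted p = 0.114). It cannot report the mature microRNA, which is shorter than a probe. Whether it reports a microRNA precursor or other RNA of the HOXB3 gene span, which holds MIR10A, was not tested. The antisense RNA HOXB-AS3 read 6.79 and 6.76 in controls and 7.07 and 6.82 in the other group, a difference of 0.17 (adjusted p = 0.387). HOXB-AS1 differed by 0.19 (adjusted p = 0.275). In their brightest probe sets both antisense RNAs had positive differences where most bright HOXB genes had negative ones, and none of the 3 transcripts passed the test. HOXB-AS3 has 5 probe sets and HOXB-AS1 has 2, and the dimmer ones are not reported here. The mean signal of HOXB-AS1, 2.59, lay below the median of all probe sets.

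In the HOXC cluster 8 of 9 genes had a positive difference and 0 passed the threshold, with a median log2 difference of 0.19. HOXC6, the one bright member and a central paralogue, went the other way. It read 6.34 and 6.25 in controls and 6.21 and 6.002 on the arrays labelled LLGL1 shRNA, lower without overlap by -0.19 (adjusted p = 0.298).

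The 3 HOXC genes with the largest differences all lay under the upper quartile of signal. HOXC13, a posterior gene required for hair and nail keratins, read 2.60 and 2.64 in controls and 2.83 and 3.18 in the other group. The groups did not overlap, but the arrays labelled LLGL1 shRNA lay far apart, and the difference was 0.39 (SE 0.135, adjusted p = 0.170). HOXC10 read 2.69 and 2.09 in controls and 2.56 and 2.77 in the other group, and its difference of 0.27 was smaller than the gap between its control arrays. HOXC8, a thoracic-level gene, read 3.11 and 3.10 in controls and 3.43 and 3.20 in the other group, a difference of 0.21 (adjusted p = 0.271) without overlap, which ran from 0.09 to 0.32 when 1 array was left out. The other HOXC genes HOXC4, HOXC5, HOXC9, HOXC11 and HOXC12 differed by 0.01 to 0.20.

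HOXC4, HOXC5 and HOXC6 have the same start in the RefSeq table, and the windows of 250 bases upstream of HOXC4 and HOXC5 are the same sequence. It is shown here because these HOXC genes share 1 annotated start, with CpG sites in capitals (GRCh38.p14, chr12:54016638-54016887, plus strand):
HOXC4 and HOXC5: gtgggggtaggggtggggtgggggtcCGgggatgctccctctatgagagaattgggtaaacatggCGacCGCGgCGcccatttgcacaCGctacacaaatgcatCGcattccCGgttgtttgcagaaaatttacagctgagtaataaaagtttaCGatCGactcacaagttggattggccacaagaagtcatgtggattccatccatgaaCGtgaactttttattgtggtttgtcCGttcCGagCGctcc
The shared window holds 14 CpG sites. HOXC4 read 3.98 and 3.64 in controls and 3.98 and 4.03 in the other group (difference 0.20), while HOXC5 differed by 0.06 with overlapping arrays and HOXC6 by -0.19. Leaving out 1 array moved HOXC4 from 0.03 to 0.36 and HOXC6 from -0.29 to -0.09. None of the 3 genes with this start passed the test, and the differences between them were not tested.

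The HOXD cluster, with 8 measured genes, all under the upper quartile of signal, was split evenly: 4 were positive, 4 negative and 0 passed, with a median of -0.00. HOXD10, a posterior gene of limb and spinal cord patterning, read 1.94 and 1.91 in controls and 1.41 and 1.66 on the arrays labelled LLGL1 shRNA. Its groups did not overlap, and the difference was -0.38 (SE 0.103, adjusted p = 0.112), at a signal near the lower quartile of all probe sets (1.68). Its other probe sets differed by -0.15 and 0.14 and so went both ways. HOXD8 read 3.02 and 3.35 in controls and 2.87 and 2.98 in the other group, a difference of -0.26 (adjusted p = 0.310). The lower of its control arrays was close to the higher array of the other group, and leaving out 1 array moved the difference from -0.43 to -0.10.

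HOXD4, an anterior to central gene that responds to retinoic acid in the hindbrain, read 2.51 and 2.42 in controls and 2.72 and 2.65 in the other group. It was higher without overlap by 0.22 (SE 0.0646, adjusted p = 0.131), and its second probe set differed by 0.42. HOXD9 read 3.92 and 3.95 in controls and 4.10 and 4.07 in the other group, and its probe sets differed by 0.15 and 0.32. In both genes each probe set had a positive difference, and none passed the test. HOXD1, HOXD11, HOXD12 and HOXD13 overlapped between groups, as did HOXA2 (difference 0.02), the single HOXA gene.

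The upstream windows of HOXD4 and HOXD8 are shown as the poorest in CpG sites and 1 of the richest among the HOX genes that have a window, with these sites in capitals (RefSeq, GRCh38.p14, chr2:176151300-176151549 and chr2:176129455-176129704, both plus strand):
HOXD4: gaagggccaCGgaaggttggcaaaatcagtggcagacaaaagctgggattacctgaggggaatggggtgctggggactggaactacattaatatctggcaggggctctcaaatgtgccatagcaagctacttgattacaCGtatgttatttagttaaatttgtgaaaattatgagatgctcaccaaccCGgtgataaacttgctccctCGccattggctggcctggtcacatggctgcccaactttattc
HOXD8: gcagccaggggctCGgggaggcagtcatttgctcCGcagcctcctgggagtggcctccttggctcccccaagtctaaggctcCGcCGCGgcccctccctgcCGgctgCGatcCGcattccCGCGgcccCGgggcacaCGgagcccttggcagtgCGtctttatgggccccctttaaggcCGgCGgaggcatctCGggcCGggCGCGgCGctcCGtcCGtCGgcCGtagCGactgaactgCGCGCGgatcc
The HOXD4 window holds 4 CpG sites and the HOXD8 window 28, the lowest number and the second highest among the 11 HOX genes with a window in the RefSeq table. The median over these 11 was 16, beside 11 over all 35116 windows of the same length. The letters CCAAT, on either strand, were present in 9 of 11 windows, beside 32.0% of all windows, and TATAAA in 1 of 11, beside 10.7%. The identical window of HOXC4 and HOXC5 is counted for both genes in these numbers and in the median. HOXD1 (31 sites, difference -0.05), HOXD10 (23 sites, -0.38), HOXD12 (16 sites, -0.19) and HOXB1 (7 sites, -0.02) were negative like HOXD8. HOXD11 (23 sites, 0.04), HOXD13 (21 sites, 0.05), HOXC4 and HOXC5 (14 sites, 0.20 and 0.06) and HOXA2 (8 sites, 0.02) were positive like HOXD4. Whether the CpG number goes with the difference was not tested. These are letter matches, and the windows of HOXB3 to HOXB9 were not used here.

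Grouped by paralogue number, the 5 genes of groups 1 to 3 had a median log2 difference of -0.02, the 11 of groups 4 to 8 one of -0.14, and the 12 of groups 9 to 13 one of 0.08. By signal, the 20 HOX genes under the upper quartile had 15 positive differences and a median of 0.08, with 8 higher and 2 lower without overlap. Over all genes at those signals 56.0% were positive, 21.2% were higher and 14.9% lower without overlap, and above the upper quartile 50.7% were negative.

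Genes that act with or on the HOX genes showed scattered changes, where 6.28% of all genes passed the threshold. Of 10 measured TALE homeodomain cofactors (PBX, MEIS, PKNOX and TGIF proteins, which bind DNA together with HOX proteins or compete with such partners), 0 passed the threshold, and the median was -0.05. MEIS2 read 5.79 and 5.80 in controls and 5.55 and 5.45 in the other group, a difference of -0.30 (adjusted p = 0.0738), and TGIF2 differed by 0.19 (adjusted p = 0.148). Of 7 ParaHox and EVX genes, the closest relatives of the clusters, 0 passed and the median was 0.14. CDX2, an intestinal homeodomain factor that activates HOX genes in the embryo, read 5.21 and 5.23 in controls and 5.71 and 5.46 in the other group, higher without overlap by 0.36 (adjusted p = 0.121), and its relative CDX1 differed by 0.21.

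Among 26 polycomb genes 1 rose and 1 fell, beside 3.21% and 3.07% of all genes, with a median of -0.03. Above the upper quartile of signal, where most of these genes lay, 5.27% of all genes were called higher and 5.89% lower. EZH2, the methyltransferase that places the repressive mark on histone H3, read 6.61 and 6.74 in controls and 7.15 and 7.13 on the arrays labelled LLGL1 shRNA. It was higher by 0.46 (SE 0.0692, adjusted p = 0.0475). PCGF5, a subunit of a variant ubiquitin ligase complex, read 8.18 and 8.11 in controls and 7.64 and 7.47 in the other group, lower by -0.59 (SE 0.0830, adjusted p = 0.0445). PHF19, an accessory subunit that works with EZH2, differed by 0.46 without passing (adjusted p = 0.0692). Averaged over its probe sets, the PCGF5 difference was -0.32, short of the threshold.

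Of 18 trithorax group genes and H3K27 demethylases 1 rose and 0 fell, beside 3.21% and 3.07% of all genes, and the median was 0.00. MEN1, the menin scaffold that brings methyltransferases to HOX genes in leukaemia cells, read 6.21 and 6.27 in controls and 6.72 and 6.61 in the other group, higher by 0.42 (SE 0.0652, adjusted p = 0.0495). WDR5, a core subunit of the same enzyme complexes, differed by 0.37 (adjusted p = 0.0608).

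Of 16 measured genes of retinoid signalling and other HOX inputs 1 rose and 1 fell, beside 3.21% and 3.07% of all genes. The median was 0.05. Geminin (GMNN), an inhibitor of replication licensing that also binds HOX proteins, read 6.90 and 6.94 in controls and 7.66 and 7.64 in the other group, higher by 0.73 (adjusted p = 0.0261). CYP26B1, which breaks down retinoic acid, read 6.75 and 6.76 in controls and 6.19 and 6.21 in the other group, lower by -0.55 (adjusted p = 0.0318). Averaged over its probe sets, the CYP26B1 difference was -0.22, short of the threshold. The groups were well apart for both genes in the brightest probe set, and no relation of either to the HOX values was tested.

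Around the clusters, 5 of 25 measured flanking genes fell and 1 rose, with a median of -0.02. Of all genes 3.07% were called lower and 3.21% higher, and above the upper quartile of signal 5.89% and 5.27%. Of the called flanking genes, all but SKAP1 lay above that quartile. SKAP1, an adaptor of T cell signalling and the protein-coding gene next to HOXB1, read 4.52 and 4.48 in controls and 4.02 and 4.06 on the arrays labelled LLGL1 shRNA. It was lower by -0.46 (adjusted p = 0.0361) without overlap. At the other end of HOXB, ATP5MC1, a subunit of mitochondrial ATP synthase, was higher by 0.59 (adjusted p = 0.0318). Neither flank of HOXB moved as a whole: SNX11 (-0.02) and CBX1 (0.03) on the SKAP1 side and CALCOCO2 (-0.18) and UBE2Z (0.06) on the ATP5MC1 side did not pass. Beyond HOXA, SKAP2 (-0.46), SNX10 (-0.36) and TAX1BP1 (-0.47) were lower, and beyond HOXD, LNPK (-0.51), which shapes the endoplasmic reticulum, was lower as well, with adjusted p values of 0.0343 to 0.0493. Averaged over its probe sets, the LNPK difference was -0.30, short of the threshold. Taking instead the 10 nearest protein-coding genes on each side of each cluster, 8 of 76 measured genes fell and 2 rose. The shares over all genes were 3.07% and 3.21%. Those not yet named were NFE2L3 (-0.71) and CPVL (-0.34), lower, and GSDME (1.03), higher, beyond HOXA, and GPR155 (-0.67), lower, beyond HOXD.

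Of 11 measured cluster antisense and long non-coding RNAs 0 passed, beside 6.28% of all genes. Their differences were positive in 8, with a median of 0.17. HAGLROS and HAGLR, from the HOXD cluster, differed by 0.43 (adjusted p = 0.0785) and 0.25 (adjusted p = 0.0940). HAGLROS read 2.09 and 1.87 in controls and 2.41 and 2.41 in the other group, without overlap and at a dim signal. HOXA-AS3 differed by 0.32, and HOTAIR, the HOXC antisense RNA known for binding polycomb proteins, by -0.30 (adjusted p = 0.181).

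**Figure D4:**
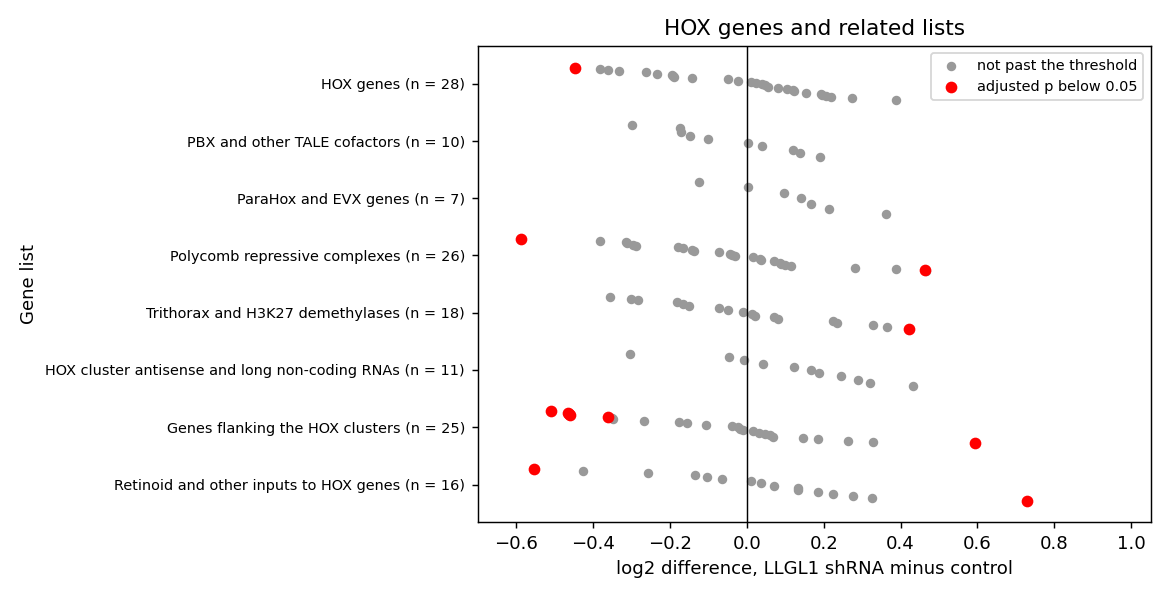
The log2 difference, LLGL1 shRNA minus control (horizontal axis), of every measured gene of the HOX list and 7 related lists (vertical axis, 1 point per gene, spread by rank within a list), with red points at an adjusted p below 0.05. The HOX list holds 1 red point (HOXB3, -0.45), and the flanking genes hold 6.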

How the data were processed

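The deposited value table holds log2 signals, which the authors made with RMA, and Partek 6.6 was also named, per the submitters' processing notes. Per the labels' protocols, biotinylated cRNA was made from 100 ng of total RNA. The sources used here do not name the background step or the scanner. Of 54675 probe sets, 41091 were annotated to 1 symbol. Entrez identifiers of 41037 matched the reference table, and 0 symbols changed. The brightest probe set of each of 19775 genes entered a two-sided limma test (version 3.58.1, R 4.3.3, lmFit, eBayes), with Benjamini-Hochberg adjustment over all genes and a threshold of 0.05. There were 2 residual degrees of freedom, and the prior added 1.94. With 2 arrays per group, the number of arrays limits precision.

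The HOX genes, the lists, the tests and the naming rule were chosen with earlier results of these data known. The rule names LLGL1, called HOX genes, the 3 largest differences per cluster, and called genes plus the 2 largest differences of each list. Other HOX genes, MIR10A and HOXB-AS1, HOXB-AS3, HAGLR, HOTAIR and several flanking genes were added after their values were seen. A second deposited table, the authors' own comparison of 294 probe sets, holds p-values, a ratio, an F score and a fold change, per the file headers. It has 0 HOX probe sets. Its 294 probe sets are those that differ at least 2-fold in the deposited values. The HOX genes differed by at most 1.36-fold in their brightest probe sets, so that 0 adds nothing on whether they changed. Alternatives covered scaling, moderation, probe set choice, a signal filter, the replicate number, and leaving out each array.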

Additional observations from a re-analysis of the deposited data

How the results depend on the processing

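The count of HOX genes past the threshold was 1 of 28 as reported. It was 2 with median centring, 2 with cyclic loess and 5 with trend and robust moderation. A signal filter that left out genes below the median of the 19775 gene signals gave 5 of 9. That median is over the brightest probe set of each gene and lies above the 2.97 of all probe sets. The HOX count was 3 at an adjusted p below 0.1. It was 0 at 0.01, with a 1.5-fold limit, or with each probe set on its own. Over all genes these settings gave 1881, 2096, 3935, 3984, 3356, 13, 479 and 341 calls beside 1242 as reported. Preferring probe sets without _x_at or _s_at names gave 791. Most of these counts are out of 19775 genes. The 341 are out of 41091 probe sets, and the 3984 are out of the fewer genes kept by the signal filter. With trend and robust moderation, 5 of 28 HOX genes thus stand beside 3935 of 19775 genes. Every called HOX gene in these settings was lower and lay in HOXB. HOXB3 passed in 5 of the 9 alternatives that kept all arrays and the threshold, and so did HOXB9. HOXB4, HOXB5 and HOXB8 passed with trend and robust moderation and with the signal filter. Of HOXB3 to HOXB9, 6 of 7 were negative in each setting, and 7 of 7 when all probe sets were averaged. With probe sets without _x_at or _s_at names preferred, EZH2, MEN1, PCGF5, SNX10 and TAX1BP1 missed the threshold, and with each probe set on its own every called gene of the related lists did except GMNN. The replicate block gave 0 HOX genes and 0 of all genes (limma, lowest adjusted p 0.0945), with 7 and 4284 at an unadjusted p below 0.05. The labels give only a replicate number, so whether same-numbered arrays belong together is not known. The deviations of same-numbered arrays correlated at r = -0.13 over genes, which cannot decide this with 2 arrays per group. A crossed pairing, added after seeing the data, also gave 0 and 0, with 6 and 5520 unadjusted. Leaving out each array gave counts from 0 to 0 for HOX genes and for all genes, with 3 to 11 HOX genes and 3496 to 4546 of all genes at an unadjusted p below 0.05, where the group left with 1 array is assumed to vary like the other. Averaging all probe sets of a gene turned the sign of HOXB7 (-0.0074) and LLGL1 (0.0079). Leaving out an array turned the sign of HOXA2 (-0.058 to 0.11), HOXB1 (-0.16 to 0.11), HOXC5 (-0.038 to 0.15), HOXC10 (-0.027 to 0.58), HOXC12 (-0.13 to 0.15), HOXD1 (-0.11 to 0.011), HOXD11 (-0.028 to 0.11), HOXD13 (-0.13 to 0.23) and CDX1 (-0.027 to 0.45). It kept the sign but moved by over 1.5 times HOXC4 (0.03 to 0.36), HOXC6 (-0.29 to -0.09), HOXC8 (0.09 to 0.32), HOXC11 (0.05 to 0.34), HOXD8 (-0.43 to -0.10) and HOXD12 (-0.37 to -0.02), among others. The causes were not tested. Signal over background limits the dim genes: 20 of 28 HOX genes lay under the upper quartile of signal.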

Other observations

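A further 4 probe sets, assigned to several symbols each, touch the HOX clusters and took no part in the test. Of these, 3 are shared by HOXD4, HOXD3 and another locus and differed by -0.05, -0.16 and -0.19, with overlapping or dim signals, where the probe sets of HOXD4 alone differed by 0.22 and 0.42. The probe set shared by HOXA10-AS and MIR196B differed by 0.07. Signals of the 4 ran from 0.75 to 4.46 on the log2 scale.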
